A study of Homo sapiens with 6 samples.

Results

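The ISG15 conjugation pathway was examined in HCT116, a human line long established from a colon carcinoma, as the 6 genes ISG15, UBA7, UBE2L6, HERC5, HERC6 and USP18. They were taken by symbol from a deposited table of 60675 genes: the modifier itself, its activating (E1) and conjugating (E2) enzymes, HERC-family ligase (E3) genes and its protease. All 6 were found, each under 1 gene ID. The first group, K29Q, stably expressed the spliceosome protein PHF5A with glutamine in place of a lysine, and the second, WT, stably expressed wild-type PHF5A, so that both groups carried an introduced PHF5A. Each group had 3 total RNA libraries, K29Q 1 to 3 and WT 1 to 3. Neither group is described as clones, pools or separate cultures, and the promoter of the introduced gene is not given in the sources used here, so p-values reflect the spread of libraries alone, part or all of which may be technical.

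ISG15 is a ubiquitin-like protein that interferons induce and that is joined to other proteins by an enzyme chain resembling that of ubiquitin. UBA7 activates it, UBE2L6 receives it from UBA7, and in human cells HERC5 is the main ligase that passes it to newly made proteins. USP18 removes ISG15 again and, independently of that activity, binds a subunit of the type I interferon receptor and dampens its signal. ISG15 also occurs free in the cell and as a secreted protein. The design asks which of these transcripts differ when PHF5A carries K29Q.

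Values are FPKM, which divide a gene's fragments by its transcript length and its library's size, so levels can be compared between genes as well as between libraries. Genes with at least 1 FPKM in at least 3 libraries were tested (13261), and 5 of the 6 members were among them, with UBA7 below the filter. Estimated depths ran from 33700000 to 40000000 fragments per library. PHF5A had 41.4, 45.9 and 45.0 FPKM in K29Q 1 to 3, against 32.4, 34.4 and 32.7 FPKM in WT 1 to 3. This sums endogenous and introduced PHF5A. An adjusted p of 0.05 (limma, Benjamini-Hochberg over all tested genes) was passed by 7 genes, or 0.0528%, of which 4, or 0.0302%, were higher in K29Q. Without WT 1 the count was 20 and without K29Q 1 it was 12. WT 1 lay apart from WT 2 and WT 3 in a principal component analysis: on the leading axis K29Q libraries spanned −14.9 to −4.76, while WT 1 had −4.72 and the remaining WT libraries 13.2 and 18.0. The run names in the column headers place K29Q 1, K29Q 2 and WT 2 on flow cell A and K29Q 3, WT 1 and WT 3 on flow cell B. In bulk RNA, fewer cells expressing a gene and less of its RNA per cell cannot be told apart.

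The 6 transcripts spanned a wide range of levels in the same order in every one of the 6 libraries. ISG15 was the most abundant by far, at 104 FPKM over all libraries, which ranked 290th among the 13261 tested genes. UBE2L6 followed at 9.86 FPKM, then USP18 at 4.52, HERC5 at 3.69 and HERC6 at 1.38 FPKM. UBA7, the only E1 of the chain, stood last at 0.189 FPKM. Within each group no neighbours in this order overlapped. The modifier thus exceeded the level of its E2 by 7.54-fold to 12.7-fold and that of its E1 by over 317-fold in each library.

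Set against this order, K29Q and WT differed in some members and overlapped in others. ISG15, HERC5 and HERC6 were higher in all 3 K29Q libraries than in any WT library, which was 3 of the 5 tested members, where 8.80% of all tested genes had their K29Q libraries above all WT libraries. The same 3 had an unadjusted limma p under 0.05 with a higher K29Q level, against 7.65% of all tested genes, and 0 members had one with a lower level, against 4.89% of all tested genes. Over all genes 0 of the 5 passed the adjusted threshold (limma). Their median log2 fold change was 0.29, on the log2(FPKM + 1) scale used for every fold change here, beside 0.00 over all tested genes. Without WT 1, the library that lay apart, the log2 fold changes were 0.54 for ISG15, 0.33 for HERC5 and 0.39 for HERC6. Their adjusted p were 0.0628, 0.0838 and 0.0866 (limma). With any other library left out, the adjusted p of ISG15 ran from 0.127 to 0.24 (limma). That of HERC5 ran from 0.461 to 0.703 and that of HERC6 from 0.51 to 0.745.

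**Figure D1:**
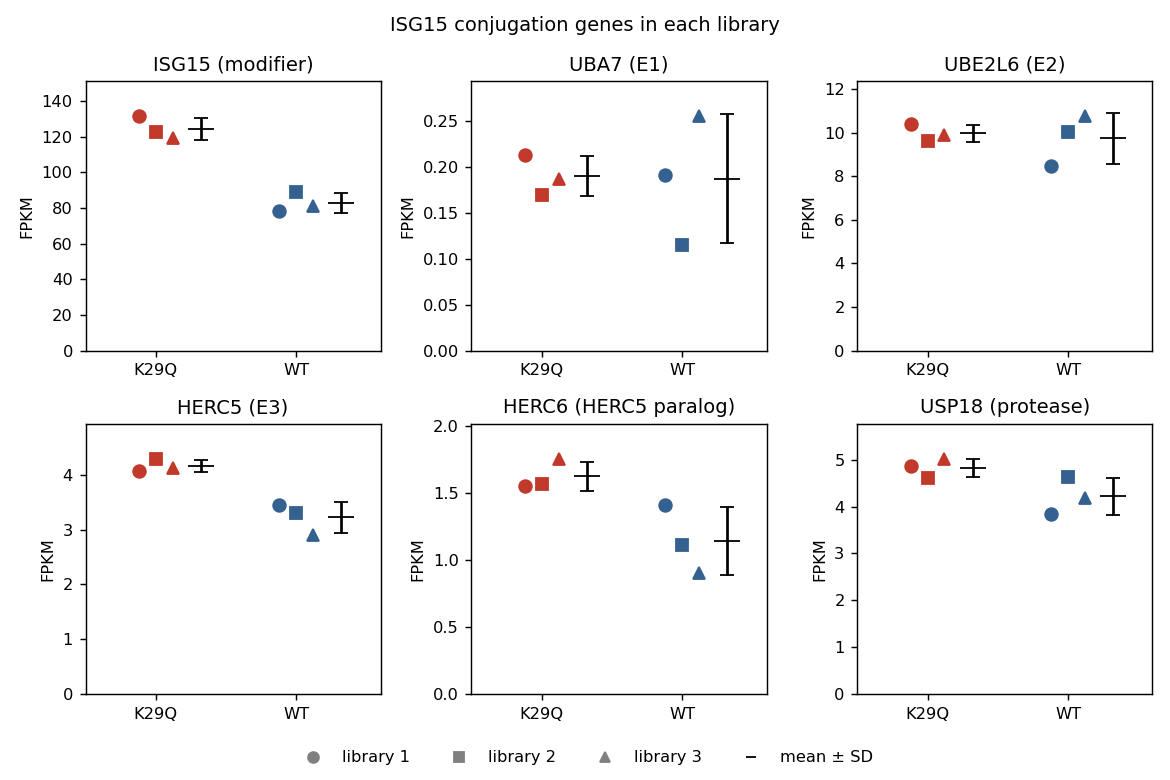
FPKM of the 6 genes in each library, K29Q left and WT right, with a linear axis from 0 in each panel. Symbols mark the library number, which was not treated as a pairing, and bars give the mean ± SD of 3 libraries. The K29Q libraries of ISG15 (119 to 131 FPKM), HERC5 and HERC6 lie above all WT libraries, while UBA7, UBE2L6 and USP18 overlap.

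ISG15 (ENSG00000187608) is a protein-coding gene on chromosome 1 from 1001138 to 1014540 (GRCh38, plus strand). It had 131.4, 122.3 and 119.2 FPKM in K29Q 1 to 3, against 78.1, 88.8 and 81.1 FPKM in WT 1 to 3. Every K29Q library thus stood at least 30 FPKM above the highest WT library, WT 2. Overlapping gene models with 0.485 FPKM or less in each library, the pseudogene AL645608.3 and the antisense gene AL645608.1, lie on the opposite strand within this span. The means were 124 ± 6.36 FPKM in K29Q and 82.7 ± 5.52 FPKM in WT (SD, n = 3 each), a ratio of 1.504. On the log2 scale K29Q exceeded WT by 0.58 (SE 0.072, with 95% confidence limits of 0.41 and 0.75), and 0.64% of tested genes had a difference as high. The gene missed the threshold (limma, adjusted p = 0.071). An exact permutation test, two-sided, gave p = 0.1, the smallest that 3 against 3 libraries allow. On flow cell A the difference was 0.51, and on flow cell B 0.58. The threshold was passed after quantile normalization (limma, adjusted p = 0.0411) and after correction for GC content and length (0.028). Over all genes 13 and 83 passed in these settings, against 7 in the main fit. ISG15 did not pass when the correction was combined with a replicate block (0.135), with a flow cell term (0.15) or with no filter on low values (0.191).

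Shown because ISG15 had the largest fold change of the 6, the 250 bases before its RefSeq start (GRCh38.p14, chr1:1013247-1013496, plus strand) read as follows, with matches to the interferon-stimulated response element in capitals.
ISG15: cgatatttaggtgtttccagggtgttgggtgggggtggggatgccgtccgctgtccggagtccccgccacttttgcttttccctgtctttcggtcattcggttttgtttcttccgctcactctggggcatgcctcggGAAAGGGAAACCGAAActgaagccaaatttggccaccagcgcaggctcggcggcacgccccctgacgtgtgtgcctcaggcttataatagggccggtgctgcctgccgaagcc
The RefSeq start lies inside the longer GENCODE span given above. The motif was searched as GAAA and GAAA with any 2 bases between them, on both strands, with overlapping matches counted. This element is the binding site of ISGF3, a complex formed after type I interferon that contains STAT2 and IRF9. The window held 2 overlapping matches on the strand of the gene, which together ran from base −113 to base −98 from the start. Over all genes with a window, 1014 of 27305 (3.71%) held at least 1 match and 75 (0.275%) held 2 or more.

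HERC5 and HERC6 are neighbours on chromosome 4 and paralogs, separated by 14005 bases. HERC5, the ligase that acts at ribosomes, lies from 88457117 to 88506163 (ENSG00000138646, plus strand) and HERC6, whose mouse counterpart is the main ISG15 ligase of that species, from 88378739 to 88443111 (ENSG00000138642, plus strand). HERC5 had 4.07, 4.28 and 4.12 FPKM in K29Q 1 to 3, against 3.45, 3.31 and 2.91 FPKM in WT 1 to 3. Its K29Q libraries lay close together and above all WT libraries, with a ratio of means of 1.29. The log2 fold change of HERC5 was 0.29 (SE 0.072, 95% limits 0.12 and 0.46; limma, adjusted p = 0.287). On flow cell A it was 0.26, and on flow cell B 0.30.

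HERC6 showed a difference of like size at a lower level. It had 1.55, 1.56 and 1.75 FPKM in K29Q 1 to 3, against 1.41, 1.11 and 0.900 FPKM in WT 1 to 3. The groups did not overlap, though WT 1 came within 0.15 FPKM of the lowest K29Q library. The ratio of means was 1.42 and the log2 fold change 0.30 (SE 0.101, 95% limits 0.061 and 0.54; limma, adjusted p = 0.368). On flow cell A it was 0.28, and on flow cell B 0.36. With a pseudocount of 0.1 in place of 1 the log2 fold change of HERC6 was 0.49, since adding 1 shrinks the fold changes of low genes. The exact permutation p was 0.1 for each of HERC5 and HERC6. HERC3, another small HERC gene, had 3.83, 4.22 and 3.95 FPKM in K29Q 1 to 3, against 3.67, 3.65 and 3.69 FPKM in WT 1 to 3 (log2 fold change 0.10, limma, adjusted p = 0.532).

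The windows before the RefSeq starts of both ligase genes are shown because these paralogs lie side by side, had fold changes of like size and differed in the motif (RefSeq, GRCh38.p14; HERC5 chr4:88456869-88457118 and HERC6 chr4:88378602-88378851, both plus strand; capitals as for ISG15).
HERC5: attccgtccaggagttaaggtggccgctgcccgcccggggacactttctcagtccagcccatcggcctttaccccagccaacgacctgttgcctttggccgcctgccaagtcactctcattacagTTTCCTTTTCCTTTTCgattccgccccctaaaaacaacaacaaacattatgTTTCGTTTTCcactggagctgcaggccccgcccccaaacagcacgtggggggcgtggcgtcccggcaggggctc
HERC6: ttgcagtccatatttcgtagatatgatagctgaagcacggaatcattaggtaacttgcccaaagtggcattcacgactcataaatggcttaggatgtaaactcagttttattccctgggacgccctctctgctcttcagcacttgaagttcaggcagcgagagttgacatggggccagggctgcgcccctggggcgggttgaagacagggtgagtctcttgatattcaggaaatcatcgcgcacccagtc
HERC5 held 3 matches, all on the strand opposite to the gene, of which 2 overlapped. HERC6 held 0 in this window, as did both windows of UBE2L6. The HERC6 window runs past the GENCODE start of HERC6, and both UBE2L6 windows lie inside the GENCODE span of UBE2L6. Bases before those GENCODE starts were thus searched only in part for HERC6 and not at all for UBE2L6. In all, 4 of the 6 members matched a window by symbol, and 2 of these 4 held the motif. A second motif, TTC and GAA with any 3 bases between them, the interferon-gamma activated site, was found in 0 of the 4 and in 8.09% of all genes with a window. A match is a description of the letters and not a measured binding site.

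**Figure D2:**
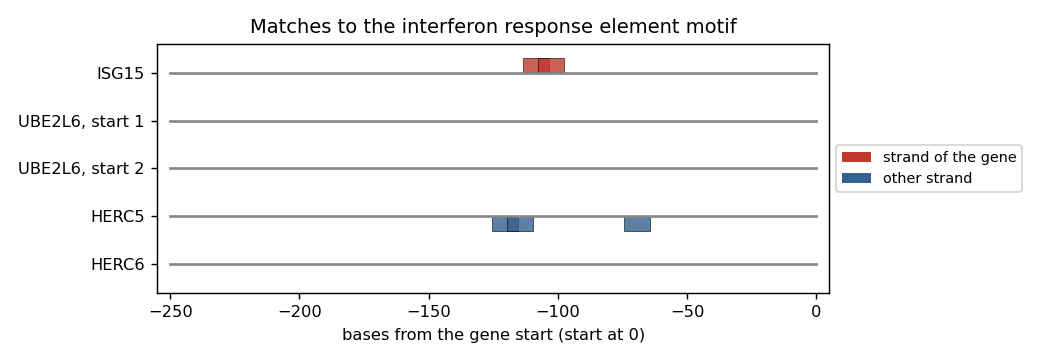
Positions of matches to the interferon response element motif in the 250 bases before each gene start, in bases from the start. Boxes above a line are on the strand of the gene and boxes below it on the other strand. ISG15 has 2 and HERC5 has 3 matches, and HERC6 and the 2 starts of UBE2L6 have 0.

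USP18 (ENSG00000184979), the protease, lies on chromosome 22 from 18149899 to 18177397 (plus strand). It had 4.86, 4.61 and 5.01 FPKM in K29Q 1 to 3, against 3.84, 4.63 and 4.19 FPKM in WT 1 to 3. The groups overlapped only through WT 2, which lay just above K29Q 2. The means were 4.82 ± 0.202 FPKM in K29Q and 4.22 ± 0.397 FPKM in WT (SD, n = 3 each), and the log2 difference was 0.16, short of the threshold (SE 0.077, 95% limits −0.02 and 0.34; limma, adjusted p = 0.436). On flow cell A it was 0.03, and on flow cell B 0.26.

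Reads of USP18 may be divided with USP41, a near-identical copy elsewhere on chromosome 22. USP41 had 0.226, 0.301 and 0.164 FPKM in K29Q 1 to 3, against 0.0575, 0.0917 and 0.142 FPKM in WT 1 to 3, below the filter in every library. With both copies summed, a choice made after the values were seen, the levels were 5.08, 4.91 and 5.17 FPKM in K29Q 1 to 3, against 3.90, 4.72 and 4.33 FPKM in WT 1 to 3. The summed libraries no longer overlapped, and the summed log2 fold change of 0.19 did not pass (limma, adjusted p = 0.391).

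The E2 gene UBE2L6 (ENSG00000156587, chromosome 11 from 57551656 to 57568284, minus strand) showed no separation of the groups. It had 10.4, 9.62 and 9.90 FPKM in K29Q 1 to 3, against 8.47, 10.0 and 10.7 FPKM in WT 1 to 3. The lowest and the highest of the 6 values were both from WT libraries, WT 1 and WT 3. The log2 fold change was 0.04 (SE 0.091, limma, adjusted p = 0.89), and its 95% confidence interval of −0.18 to 0.25 lay below the estimate for ISG15. UBE2L3, the ubiquitin E2 closest to it in sequence, had 34.6, 35.7 and 36.2 FPKM in K29Q 1 to 3, against 35.3, 37.5 and 35.5 FPKM in WT 1 to 3 (adjusted p = 0.883).

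The E1 gene UBA7 (ENSG00000182179, chromosome 3 from 49805207 to 49813946, minus strand) was scarcely detected. It had 0.213, 0.170 and 0.187 FPKM in K29Q 1 to 3, against 0.192, 0.115 and 0.256 FPKM in WT 1 to 3. The WT values enclosed all K29Q values. At the estimated depths and for its longest annotated transcript this is about 14 to 30 fragments per library, against 2220 to 3849 for ISG15. Fitted with no filter on low values, its log2 fold change was 0.00 (SE 0.053, 95% limits −0.13 and 0.14, limma, adjusted p = 0.988), and with a pseudocount of 0.1 it was 0.04. These limits lie below the log2 fold change of HERC6, but at so low a level the added 1 shrinks any ratio, and the WT values alone differ by over 2-fold. UBA1, the main E1 of ubiquitin, had 81.8, 82.0 and 80.7 FPKM in K29Q 1 to 3, against 83.7, 90.4 and 93.8 FPKM in WT 1 to 3 (log2 fold change −0.13, limma, adjusted p = 0.437).

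**Figure D3:**
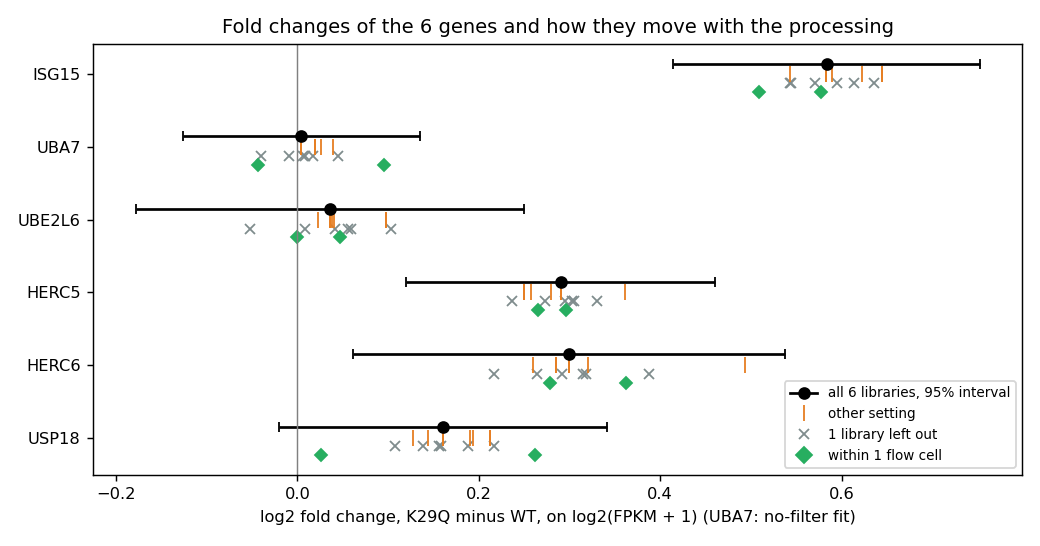
Log2 fold changes (K29Q minus WT, log2(FPKM + 1)) of the 6 genes. Black points with bars give the fit over all 6 libraries with its 95% confidence interval, orange ticks the other settings, grey crosses the fits with 1 library left out and green diamonds the differences within 1 flow cell. ISG15, HERC5, HERC6 and USP18 lie above 0 under each of these, and UBA7 and UBE2L6 lie on both sides of 0.

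Because FPKM is scaled by length, the balance between members can be read within each library. The level of ISG15 over that of USP18 was 27.1, 26.6 and 23.8 in K29Q 1 to 3, against 20.4, 19.2 and 19.4 in WT 1 to 3. The 3 K29Q ratios thus stood above all WT ratios, which spread little. The log2(FPKM + 1) level of USP18 relative to ISG15 differed by −0.42 (SE 0.055) between K29Q and WT. The level of ISG15 over that of UBE2L6 was 12.6, 12.7 and 12.04 in K29Q 1 to 3, against 9.22, 8.87 and 7.54 in WT 1 to 3, again without overlap (log2 difference for UBE2L6 −0.55, SE 0.085). For HERC5 the ratios were 32.3, 28.6 and 28.9 in K29Q 1 to 3, against 22.6, 26.9 and 27.9 in WT 1 to 3. They did not overlap either, with a gap under 1 between WT 3 and K29Q 2 (log2 difference −0.29, SE 0.095).

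The ratios to the scarcest members overlapped. ISG15 over HERC6 was 84.8, 78.3 and 68.2 in K29Q 1 to 3, against 55.5, 80.1 and 90.1 in WT 1 to 3, and the log2 difference of −0.28 for HERC6 shrank to −0.10 with a pseudocount of 0.1 (exact permutation test, adjusted p = 0.8). ISG15 over UBA7 was 618, 721 and 636 in K29Q 1 to 3, against 407, 770 and 317 in WT 1 to 3, and WT 2 alone lay above the K29Q values (log2 difference for UBA7 −0.58, SE 0.102). On the log2(FPKM + 1) scale the exact two-sided permutation p was 0.1 for each of the 5 ratios and 0.1 after Benjamini-Hochberg adjustment over them, the smallest value this design allows, so none could pass 0.05. With the pseudocount of 0.1 the adjusted p was 0.125 for each of the 4 ratios other than that of HERC6. All 5 ratios share ISG15, so they are not independent. On the log2(FPKM + 1) scale the fold change was 0.00 for UBA7, 0.04 for UBE2L6, 0.16 for USP18 and 0.58 for ISG15. The differences in the UBA7 and UBE2L6 ratios thus nearly repeat that of ISG15, and the difference in the USP18 ratio repeats most of it. These ratios are not findings separate from the ISG15 difference, and their p of 0.1 does not show a changed balance.

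**Figure D4:**
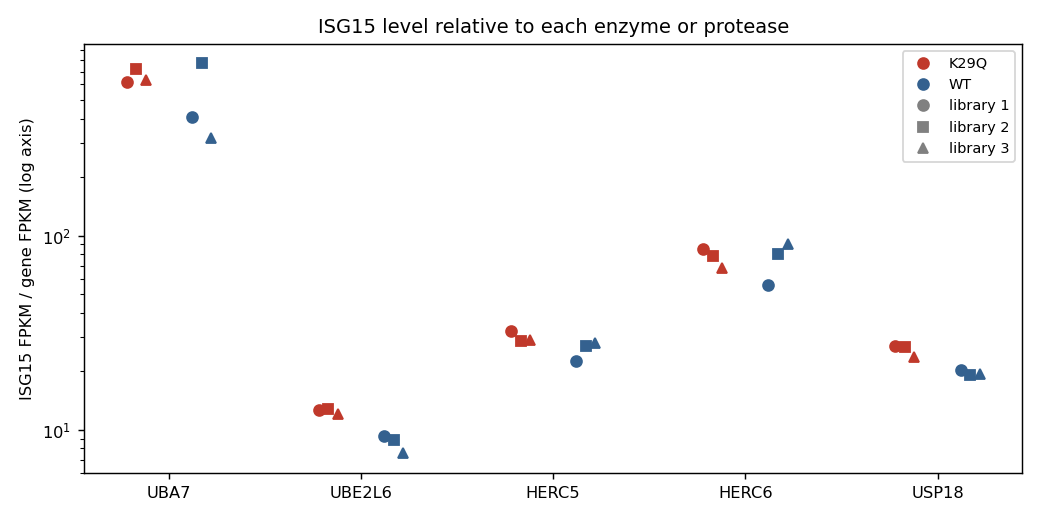
FPKM of ISG15 divided by that of each enzyme or of USP18 in the same library (log axis), K29Q left and WT right for each gene. The groups are apart for UBE2L6 (12.04 to 12.7 in K29Q, 7.54 to 9.22 in WT), HERC5 and USP18, and overlap for UBA7 and HERC6.

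Proteins outside the 6 that have been reported to join ISG15 to substrates or remove it showed no common difference. Of 8 such genes (ARIH1, TRIM25, USP2, USP5, USP13, USP14, USP16 and USP21) all were tested, 3 had a positive and 5 a negative log2 fold change, and the median was −0.003. By limma 0 passed, and 1 of the 8 had an unadjusted p under 0.05 with a higher K29Q level, where 7.65% of all tested genes had one. That gene was USP16, also a histone H2A deubiquitinase, with 7.41, 6.55 and 7.33 FPKM in K29Q 1 to 3, against 6.50, 4.69 and 4.81 FPKM in WT 1 to 3 (log2 fold change 0.36, adjusted p = 0.365). TRIM25, itself interferon-induced, had 21.4, 23.3 and 22.9 FPKM in K29Q 1 to 3, against 24.6, 21.5 and 25.5 FPKM in WT 1 to 3, with full overlap.

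Relatives of the members in the ubiquitin system gave small differences in both directions. Of 9 relatives, 7 were tested, 5 lay above 0 and 2 below, and 0 passed (limma). At an unadjusted p under 0.05 (limma) 1 of the 7 was higher in K29Q, where 7.65% of all tested genes were. The E1 UBA6 was that gene, with a log2 fold change of 0.31 (adjusted p = 0.388) and overlapping groups. UBD, which encodes FAT10, another interferon-induced ubiquitin-like modifier, was listed at 0 in 4 of 6 libraries and at no more than 0.0257 FPKM in the others. Of 12 ubiquitin genes and other ubiquitin-like modifiers, 3 lay above 0 and 9 below, with a median of −0.06 and fold changes between −0.13 and 0.18, and 0 passed (limma, 0 at an unadjusted p under 0.05).

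Upstream of the pathway, IRF9, the DNA-binding component of ISGF3, differed in the direction of ISG15. IRF9 had 3.64, 2.61 and 3.23 FPKM in K29Q 1 to 3, against 1.72, 1.88 and 2.34 FPKM in WT 1 to 3 (log2 fold change 0.48, limma, adjusted p = 0.287). All its K29Q libraries were above all WT libraries. STAT2, to which USP18 binds, had 6.45, 6.31 and 7.55 FPKM in K29Q 1 to 3, against 5.90, 5.51 and 6.69 FPKM in WT 1 to 3, and its groups overlapped. Over the 7 receptor and ISGF3 genes, 6 lay above 0 and 1 below with a median of 0.14, and 0 passed (limma). At an unadjusted p under 0.05 (limma) 2 were higher in K29Q and 0 lower, against 7.65% and 4.89% of all tested genes.

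Among interferon regulatory factors, IRF7, itself an interferon-induced gene, had 11.5, 9.36 and 9.54 FPKM in K29Q 1 to 3, against 6.16, 5.20 and 7.32 FPKM in WT 1 to 3. It stood apart in the groups at a log2 fold change of 0.63 (adjusted p = 0.186), and it passed after correction for GC content and length (0.0217) but not with the block as well (0.135). Of 7 such factors 6 were tested, 4 lay above 0 and 2 below, the median was 0.01, and 0 passed (limma). At an unadjusted p under 0.05 (limma) 1 of the 6 was higher in K29Q, where 7.65% of all tested genes were. Of 9 interferon genes, IFNE, an epithelial type I interferon, alone passed the filter. It had 1.75, 2.14 and 1.33 FPKM in K29Q 1 to 3, against 1.22, 0.974 and 0.777 FPKM in WT 1 to 3 (log2 fold change 0.46, limma, adjusted p = 0.345). Of the WT libraries WT 1 alone reached 1 FPKM. IFNE thus met the filter mainly through the K29Q libraries, and its difference is a description.

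The other interferon-induced genes gave a frame for the size of the ISG15 difference. Of 36 genes listed, 23 were tested, 22 with a positive and 1 with a negative fold change. The median log2 fold change was 0.49, against 0.29 for the 5 tested members and 0.58 for ISG15. With a pseudocount of 0.1 the list median was 0.718, against 0.361 for the members and 0.589 for ISG15. ISG15 thus lay above the list median with 1 added and below it with 0.1 added. By limma 2 of the 23 passed, both higher in K29Q, where 0.0302% of all tested genes did so. At an unadjusted p under 0.05 the count was 20 higher and 1 lower, against 7.65% and 4.89% of all tested genes. The list was chosen with earlier results of these data known, so these counts are a description. IFI6, a mitochondrial membrane protein, passed with 114, 89.1 and 93.7 FPKM in K29Q 1 to 3, against 33.3, 34.4 and 34.6 FPKM in WT 1 to 3 (log2 fold change 1.502, limma, adjusted p = 0.00352), though not with no filter on low values (0.0578) or with GC and length correction and a replicate block (0.0639). OAS3, an activator of RNase L, passed at 0.67 (adjusted p = 0.0357) but not once any 1 library was left out (0.054 to 0.14). The double-stranded RNA sensor IFIH1 (0.78, limma, adjusted p = 0.0571) did not pass. OAS1, a relative of OAS3, had 1.27, 1.19 and 1.30 FPKM in K29Q 1 to 3, against 0.460, 0.390 and 0.341 FPKM in WT 1 to 3. It was the 1 gene of the 23 that met the filter through the K29Q libraries only, so that its difference is a description. OAS1 is still included in the 23 tested, the 22 positive and the 20 higher genes and in the median. Of the 28 of these genes with a promoter window, 20 (71.4%) held the response element motif and 11 held 2 or more matches.

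**Figure D5:**
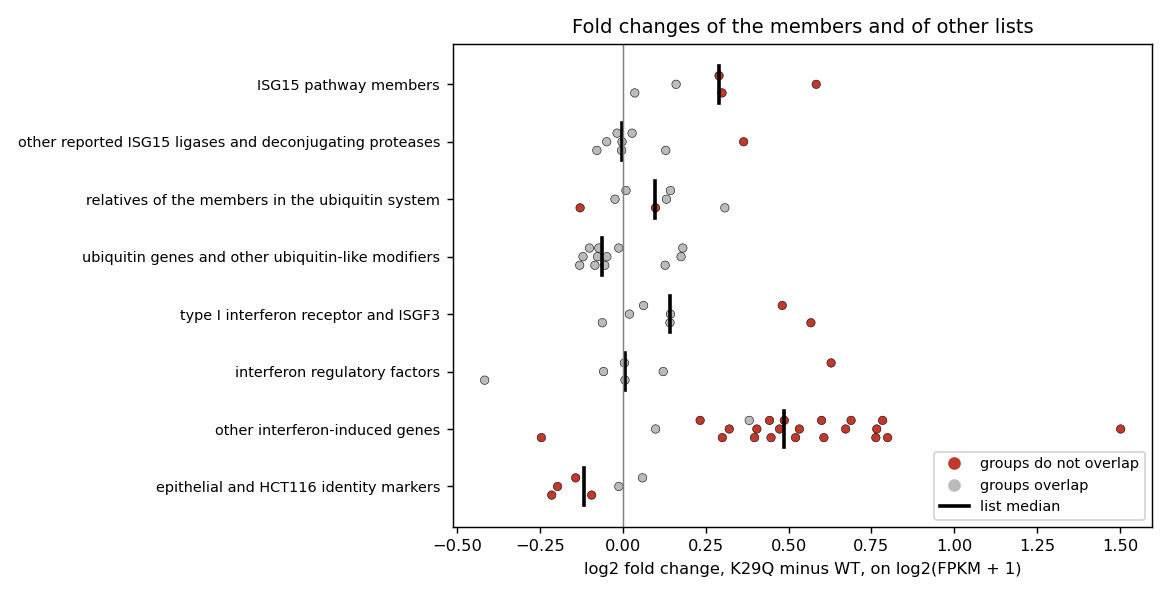
Log2 fold change (K29Q minus WT, log2(FPKM + 1)) of each tested gene, by list, with the list median as a black line. Red points are genes whose groups do not overlap. The 5 tested members lie between 0.04 and 0.58, inside the range of the other interferon-induced genes (−0.25 to 1.502).

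Of the 5 genes most like ISG15 over the 6 libraries, 3 were on the list of other interferon-induced genes. Of all 13261 tested genes, 23 are on that list, which was chosen with earlier results of these data known. Likeness was the mean absolute difference between centred log2 values, over 13018 tested genes with a mean of at least 1 on the log2 scale. Values were centred over both groups, so likeness takes in the difference between K29Q and WT and is a description. OAS3 was nearest at 0.044, followed by PAM, which amidates peptides, at 0.079, IFIT2 at 0.081, PARP9 at 0.082 and FAM162A at 0.083. In the same order the ratios of means were 1.65, 1.473, 1.738, 1.702 and 1.405, beside 1.504 for ISG15. Adding 1 before the log brings low genes such as IFIT2 and PARP9 closer to ISG15. IFIT2, which binds viral RNA, had 1.97, 2.24 and 2.005 FPKM in K29Q 1 to 3, against 1.29, 1.21 and 1.08 FPKM in WT 1 to 3. PARP9, which forms a complex with the ubiquitin ligase DTX3L, had 2.82, 3.11 and 2.93 FPKM in K29Q 1 to 3, against 1.85, 1.82 and 1.53 FPKM in WT 1 to 3. PAM and FAM162A are on none of the lists used here, and FAM162A is known as a hypoxia-induced gene.

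Markers of other cell types were summed in each library. Summed over 9 leukocyte markers, levels ran from 2.65 to 3.15 FPKM in K29Q and from 2.47 to 3.21 FPKM in WT, and 4 of the 9 stayed under 0.1 FPKM in every library. Most of this sum was CD68, at 1.52 to 1.88 FPKM in K29Q and 1.47 to 1.999 FPKM in WT, with overlapping groups. LYZ followed at 0.66 to 0.703 FPKM in K29Q and 0.451 to 0.699 FPKM in WT. PTPRC, the pan-leukocyte antigen, was listed at 0 in all K29Q libraries and at no more than 0.00268 FPKM in WT. ITGAL and ITGB2, the subunits of the integrin that serves as a receptor for secreted ISG15 on lymphocytes, did not exceed 0.0715 FPKM in any library. Summed over 8 fibroblast and endothelial markers, of which DCN and LUM were listed at 0 in all libraries, levels ran from 4.76 to 6.13 FPKM in K29Q and from 4.61 to 5.54 FPKM in WT. Nearly all of this sum was COL1A1, a collagen gene, at 4.56 to 5.93 FPKM in K29Q and 4.35 to 5.24 FPKM in WT. Of 7 epithelial markers 6 were tested. EPCAM had 51.8 to 62.0 FPKM in K29Q and 48.2 to 61.1 FPKM in WT, CDX2, an intestinal transcription factor, had 2.92 to 3.54 FPKM in K29Q and 3.16 to 3.48 FPKM in WT, and VIL1, which encodes villin, was below the filter at 0.0560 to 0.181 FPKM in K29Q and 0.0358 to 0.0538 FPKM in WT. Summed over 7 epithelial markers, levels were lower in K29Q (1146 to 1200 FPKM, against 1247 to 1400 FPKM in WT). Most of this came from KRT19 (log2 fold change −0.21, limma, adjusted p = 0.373) and KRT8 (−0.20, adjusted p = 0.389). KRT19, KRT8, KRT18 (−0.09) and CDH1 (−0.14) had all K29Q libraries below all WT libraries. That was 4 of the 6 tested markers, against 1194 of all 13261 tested genes. Of the 6, 5 lay below 0 and 1 above. At an unadjusted p under 0.05 (limma) 2 were lower in K29Q, against 4.89% of all tested genes, and 0 passed the adjusted threshold. The part of the epithelial genes in the ISG15 difference was not tested.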

How the data were processed

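Total RNA of HCT116 cells was sequenced in 3 K29Q and 3 WT libraries. The authors deposited 1 FPKM value for each gene in each library, as the column headers state. The submitters' processing notes name HISAT2 2.1.0 and StringTie, with GRCh38 as the genome. Annotation and strand settings are not stated there. FPKM are not counts, and StringTie divides fragments among overlapping models, so no count test was run. Depth was estimated by taking 1 step in the values of single-exon genes as 1 fragment, which gave 33700000 to 40000000 fragments per library. It is rough, since 46.5% to 51.0% of these values lay within 0.1 of a whole step.

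Genes with at least 1 FPKM in at least 3 libraries (13261) entered a limma fit (version 3.58.1, R 4.3.3) of log2(FPKM + 1) with an intensity trend and group as its only term. P-values were two-sided and adjusted over all tested genes (Benjamini-Hochberg). The script was tested on simulated data. Ratios to ISG15 were compared with exact permutation tests (scipy 1.17.1). Gene positions, lengths and GC content came from GENCODE 29, and promoter sequences from RefSeq.

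Members, lists and alternatives were chosen with earlier results of these data known. The rule for named genes took the 6 members, up to 4 genes with the smallest p per list, members of lists of at most 9 genes where a sentence needed them, and the 5 genes most like ISG15. TRIM25, UBA1, UBE2L3, HERC3 and STAT2 were named as functional counterparts. KRT19 and KRT8 had the smallest p of their list. Same-numbered libraries were not treated as pairs, since their deviations from the group means correlated across genes at −0.140, 0.179 and −0.165. The values of 1 listed gene are not reported here.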

Additional observations from a re-analysis of the deposited data

How the results depend on the processing

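Depth limits UBA7 most, and with 3 libraries a group no exact test can go below 0.1. The count of genes past the threshold (7) was 13 with quantile normalization, 2 with no filter on low values, 3 with the replicate block, 4 with a flow cell term, 83 after correction for GC content and length and 1 with that correction and the replicate block, and it ran from 5 to 20 with 1 library left out. The cause was not tested. The labels do not say whether the replicate number pairs these libraries.

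The count of pathway members past the threshold (0) was 1, ISG15, with quantile normalization and after GC and length correction (log2 fold changes 0.62 and 0.64), and 0 with the replicate block, where the adjusted p of ISG15 was 0.338. With 1 library left out ISG15 ran from 0.54 to 0.64, with adjusted p from 0.0628 to 0.24. The count of members higher at an unadjusted p under 0.05 (3) was 1 at a mean FPKM of at least 5, a filter that HERC5 and HERC6 do not reach, and 2 to 3 with 1 library left out. UBE2L6 was −0.052 without WT 1 and −0.001 within flow cell A, and ran from −0.052 to 0.103 with 1 library left out. UBA7 was 0.095 on flow cell A, −0.043 on flow cell B, and ran from −0.04 to 0.045 with 1 library left out. USP18 was 0.026 on flow cell A, 0.262 on flow cell B. The ratio to ISG15 was −0.414 for UBA7 within flow cell A and −0.315 for USP18 within flow cell B. TRIM25 turned to 0.051 within flow cell A, and UBE2L3 to 0.020 with quantile normalization and with GC and length correction (also with the block), −0.039 to 0.003 with 1 library left out and 0.032 within flow cell B. The median log2 fold change of all genes stayed between −0.017 and 0.008.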
